A study of Mus musculus with 28 samples.

Results

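The genes described here are 10 members of the Polycomb group: Phc1, Cbx7, Cbx8, Bmi1, Ring1 and Rnf2 of Polycomb repressive complex 1 (PRC1), and Ezh1, Ezh2, Eed and Suz12 of Polycomb repressive complex 2 (PRC2). They were taken, out of 12393 genes on the array, as those of that name, and read through the 24 probe sets, of 20380 with 1 annotated gene, whose platform annotation named a member and no other gene. The members were chosen by name, but with earlier results of these data known. RNA of sorted mouse bone marrow cells had been hybridised to 28 Affymetrix arrays, in 2 experiments that the submitters call noncomparable, because RNA was amplified on different days. The transduced experiment had granulocyte-macrophage progenitors, or GMP, that were given the leukaemia fusion gene MLL-AF9 (3 arrays) or green fluorescent protein, GFP (3 arrays). In the sorted experiment, leukaemic cells with a GMP-like surface phenotype (L-GMP, 6 arrays) stood beside 4 normal populations: a Lin-, Sca+, Kit+ fraction in which haematopoietic stem cells are enriched (HSC, 5 arrays), and Lin-, Sca-, Kit+ megakaryocyte-erythroid progenitors (MEP, 3 arrays), common myeloid progenitors (CMP, 4 arrays) and GMP (4 arrays). The labels give no strain, sex, age, vector or culture time, and do not say whether replicates were separate animals. The p-values therefore cover only the spread among these arrays, which may be technical. The titles give CMP as CD34 low and Fc receptor positive, and their Fc receptor transcript is described below.

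Polycomb proteins keep developmental genes silent through marks on histones. PRC2 methylates lysine 27 of histone H3 through its catalytic subunits EZH2 or EZH1, which need EED and SUZ12. Canonical PRC1 recognises that mark through a chromobox (CBX) protein, joins chromatin through a polyhomeotic (PHC) protein, and ubiquitinates histone H2A through RING1 or RNF2 paired with a partner such as BMI1. In blood, BMI1 is known as a factor that stem cells need to renew themselves, and several Polycomb genes have been studied in leukaemias with MLL fusions.

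All levels below are log2 of intensity after each array was brought to a common trimmed mean within its experiment, with low values raised to a floor of 5.27 (sorted) or 6.29 (transduced). A level is compared only with the same probe set in other groups, and never with that of another probe set. A probe set was tested when it exceeded the experiment's median on at least 3 arrays, which held for 19 of the 24 member probe sets (all 10 genes) in the sorted and for 14 (9 genes, without Phc1) in the transduced experiment. Changes are differences of group means on the log2 scale ± SE from limma's moderated test, two-sided, with p-values adjusted by Benjamini-Hochberg over all probe sets tested, and a change was called at an adjusted p under 0.05. In sorted populations, fewer cells of a type and less RNA per cell cannot be told apart.

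The sorts carried transcripts of their labelled types, except for the Fc receptor in CMP. Klf1, an erythroid transcription factor, averaged 10.46 in MEP and 7.31 in CMP and lay at the floor on every array of L-GMP, HSC and GMP. Elane, which encodes neutrophil elastase, averaged 12.35 in L-GMP and 12.60 in GMP, and Procr, a stem cell surface receptor, averaged 9.21 in HSC and was at the floor on every array of L-GMP, MEP and GMP. Fcgr3, the Fc receptor transcript, averaged 9.65 in L-GMP and 9.51 in GMP but 5.47 in CMP, with 2 of 4 CMP arrays at the floor. The mean level of 25 listed proliferation genes, of which 24 were on the array, lay between 8.98 and 9.77 in HSC and between 9.63 and 10.30 on the arrays of the other 4 groups. Immediate early and heat shock genes, a list of 12 added after the values were seen, had mean levels of 6.67 to 7.83 in L-GMP, against 8.70 to 11.50 in HSC, 9.98 to 10.52 in MEP, 7.26 to 10.36 in CMP and 7.16 to 9.79 in GMP. All 15 of their tested probe sets were called lower in L-GMP than in HSC, 10 lower than in MEP, 8 lower than in CMP and 4 lower than in GMP. Of all tested probe sets, 23.8%, 23%, 21.4% and 18.5% were called lower in these comparisons, in the same order. Replicate 1 of HSC, of CMP and of GMP stood apart in the same list, at 8.70, 7.26 and 7.16, below all other arrays of their groups. The part of either list in the results below was not tested, but calls that end without those 3 arrays are named.

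Across the 10 pairs of sorts, 31 of 190 member comparisons were called (16.3%), against 30.9% over all probe sets tested. The members also ranged less over the sorts: the highest minus the lowest of the 5 group means had a median of 0.41 over the 19 member probe sets and of 0.61 over all 12233 tested. In 13 of the 19 the range was below 0.61, and it exceeded 1 only for Phc1 and for 1 probe set each of Cbx8 and Ezh1. By the F test of any difference among the 5 sorts, 7 of 19 member probe sets were called, against 62.3% of all. Ezh2, Ring1 and Rnf2 were called in none of the 10 pairs.

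**Figure D1:**
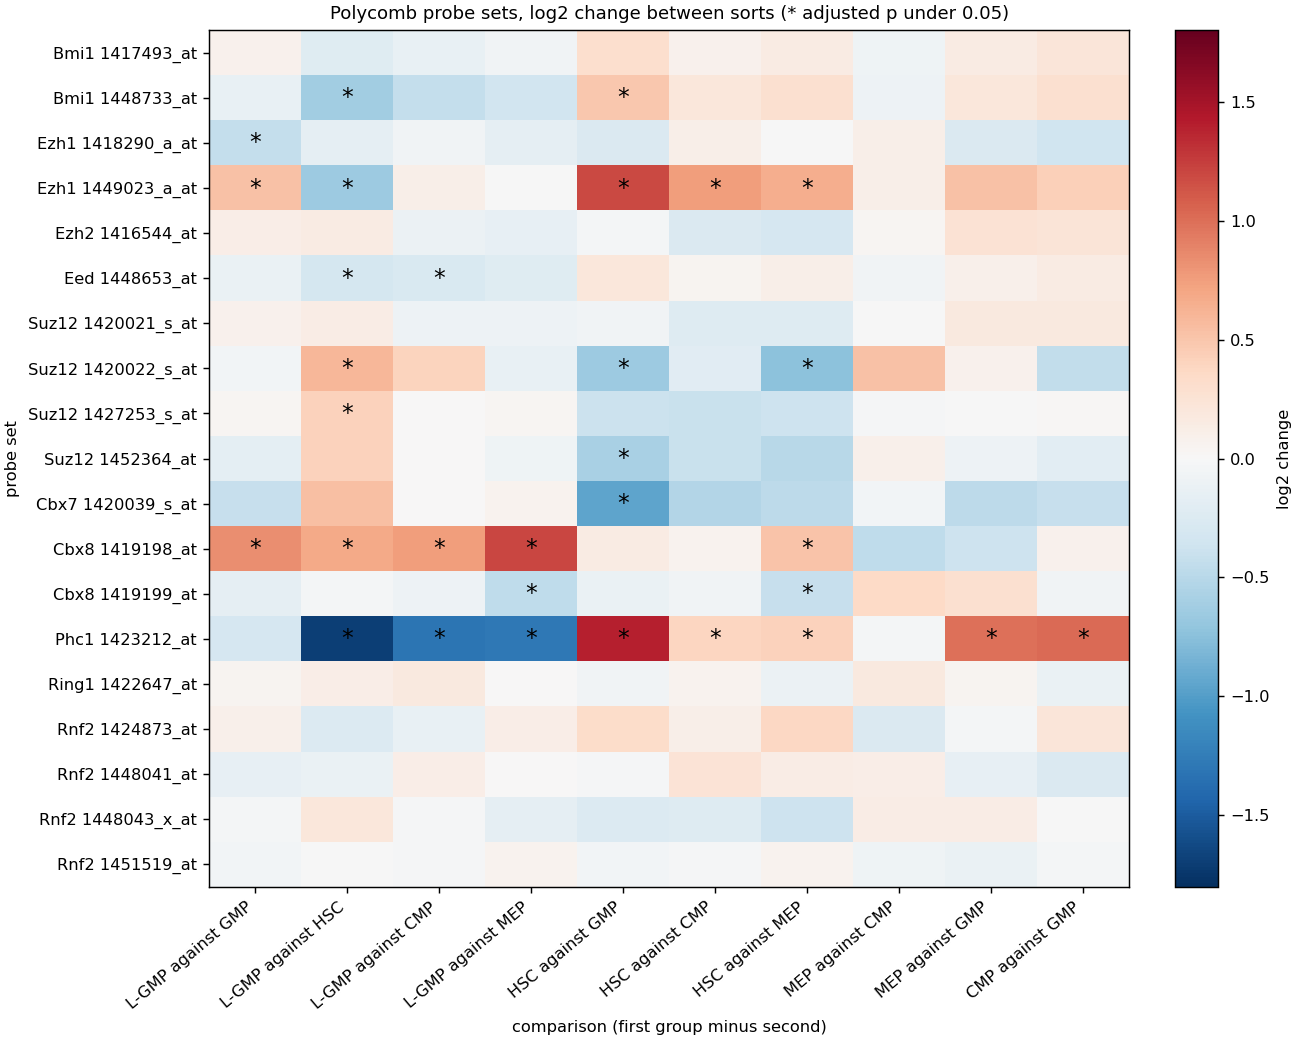
Log2 change of each tested Polycomb probe set (rows) in each of the 10 pairs of sorts (columns, first group minus second), red for higher and blue for lower in the first group. Asterisks mark the 31 changes with an adjusted p under 0.05, of which 8 belong to Phc1.

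Few of the member probe sets passed the test between leukaemic and normal GMP. L-GMP against GMP gave 3 called member probe sets of 19 (2 higher, 1 lower), where 32.8% of all probe sets were called (14.3% higher, 18.5% lower), and they belonged to Cbx8 and Ezh1. The median change of the members was -0.05, and that of all tested probe sets was 0.00197. Against HSC, L-GMP differed in 7 member probe sets (3 higher, 4 lower), where 47.3% of all were called (23.5% higher, 23.8% lower). L-GMP differed in 3 from CMP (1 higher, 2 lower, against 39.1% of all, 17.7% higher and 21.4% lower) and in 3 from MEP (1 higher, 2 lower, against 44.6%, 21.7% higher and 23% lower). HSC differed from GMP in 6 (3 higher, 3 lower, against 40.9% of all, 18.5% higher and 22.3% lower). It differed from CMP in 2, both higher (against 12.8% of all, 5.58% higher), and from MEP in 5 (3 higher, 2 lower, against 32.7% of all, 16.9% higher and 15.8% lower). MEP gave no call against CMP, where 15.9% of all probe sets were called and 3 member probe sets had an unadjusted p under 0.05. MEP and CMP were each higher than GMP in 1 member probe set, that of Phc1 (against 26.3% and 16.2% of all called, 11.1% and 8.06% higher).

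Phc1, which encodes a polyhomeotic subunit of PRC1, had the widest range of the 10 genes, and 88.9% of all tested probe sets ranged less. Its only probe set (1423212_at) read 7.07 at the lowest, 7.28 at the median and 7.71 at the highest of the 6 L-GMP arrays. The HSC arrays read 9.04, 9.04, 9.06, 8.88 and 9.13, the MEP arrays 8.85, 8.58 and 8.43, the CMP arrays 8.59, 8.65, 8.70 and 8.66, and the GMP arrays 7.38, 7.84, 7.86 and 7.46. HSC, MEP and CMP thus lay above every L-GMP and GMP array, while L-GMP and GMP overlapped. L-GMP fell below HSC by 1.70 ± 0.11 (3.24-fold, adjusted p = 4.96e-11), below CMP by 1.32 ± 0.12 (adjusted p = 1.35e-08) and below MEP by 1.29 ± 0.13 (adjusted p = 5.32e-08). HSC exceeded GMP by 1.40 ± 0.12 (adjusted p = 1.48e-08), MEP exceeded GMP by 0.99 ± 0.14 (adjusted p = 1.32e-05) and CMP exceeded GMP by 1.02 ± 0.13 (adjusted p = 9.23e-06). Phc1 was therefore high in the stem cell fraction and in CMP and MEP, and low in normal and leukaemic GMP.

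The neighbouring steps of that order were less firm. HSC exceeded CMP by 0.38 ± 0.12 (adjusted p = 0.0485), a call that held in 8 of 22 fits that each left out 1 array (adjusted p up to 0.116, without CMP replicate 1) and ended without replicate 1 of HSC, CMP and GMP (adjusted p = 0.130). HSC exceeded MEP by 0.41 ± 0.14 (adjusted p = 0.0241), with adjusted p = 0.159 without MEP replicate 3, 0.0676 without MEP replicate 2 and 0.0513 without HSC replicate 5. MEP and CMP differed by -0.03 ± 0.14 (adjusted p = 0.935). L-GMP minus GMP was -0.30 ± 0.12 (adjusted p = 0.0615), not called. It was called under quantile normalization (adjusted p = 0.0489), with the 3' to 5' signal ratio as a covariate (0.0390), without GMP replicate 1 (0.0262), without GMP replicate 4 (0.0459) and without L-GMP replicate 6 (0.0133). The genes whose levels ran most like Phc1 over the 22 sorted arrays, by Pearson's r as a description, were Eng (0.987), Tgfbr2 (0.971) and Usp18 (0.969), each array being shared by both genes of a pair.

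Promoter sequence is shown for Phc1, Cbx8 and Ezh1, the 3 genes with the widest ranges over the sorts when each gene is ranked by its widest probe set. For Cbx8 the range was 1.20 by 1419198_at but 0.45 by 1419199_at. For Ezh1 it was 1.18 by 1449023_a_at but 0.43 by 1418290_a_at. The sequences are RefSeq's (GRCm38.p6), the 250 bases before the annotated start on the strand of the gene (the minus strand for all 3), and all 10 members matched an entry. Motif matches on either strand are in capitals. Phc1 lies upstream at chr6:122340228-122340477, Cbx8 at chr11:119040914-119041163 and Ezh1 at chr11:101226464-101226713.
Phc1: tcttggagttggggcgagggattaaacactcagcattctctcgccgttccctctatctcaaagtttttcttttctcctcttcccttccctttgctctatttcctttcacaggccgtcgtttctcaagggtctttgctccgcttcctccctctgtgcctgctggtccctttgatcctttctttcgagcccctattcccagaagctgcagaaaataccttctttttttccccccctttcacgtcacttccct
Cbx8: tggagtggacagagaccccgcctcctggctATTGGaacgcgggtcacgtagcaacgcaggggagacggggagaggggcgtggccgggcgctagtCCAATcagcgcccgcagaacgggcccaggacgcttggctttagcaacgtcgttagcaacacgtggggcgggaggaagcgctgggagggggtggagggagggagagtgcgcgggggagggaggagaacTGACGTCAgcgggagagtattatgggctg
Ezh1: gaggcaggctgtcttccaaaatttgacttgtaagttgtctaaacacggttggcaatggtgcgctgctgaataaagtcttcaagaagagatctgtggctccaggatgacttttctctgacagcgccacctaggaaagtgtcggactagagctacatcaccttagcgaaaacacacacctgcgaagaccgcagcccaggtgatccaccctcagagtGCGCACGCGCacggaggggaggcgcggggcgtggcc

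In the window of 300 bases that adds the 50 after the start, Phc1 held 9 CpG dinucleotides, Cbx8 24 and Ezh1 23, where the median over all 32851 promoters in the table was 7. Positions count from the start, -1 being the base before it. Searched on both strands, where NRF1 strings can overlap each other, were the letters of E2F (TTTGGCGC, TTTCGCGC or TTTCCCGC), the CCAAT box (CCAAT), ETS (CCGGAAG), the GC box (GGGGCGGGG), YY1 (AANATGGCG), NRF1 (GCGC and TGCGC, 1 base apart) and the cyclic AMP response element (CRE, TGACGTCA). Phc1 held none of these strings. Cbx8 held the CRE string from -29 to -22, which 1.79% of all promoters hold, and the CCAAT box at -220 and -156, which 37.4% hold. Ezh1 held the NRF1 string from -36 to -27, which 4.60% hold. Of the other members, Ezh2 and Suz12 held an E2F string (1.84% of all promoters) and Ring1 and Rnf2 none of the strings. No string is shared by the 3 promoters printed. A match describes the letters of the window and says nothing about binding.

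**Figure D2:**
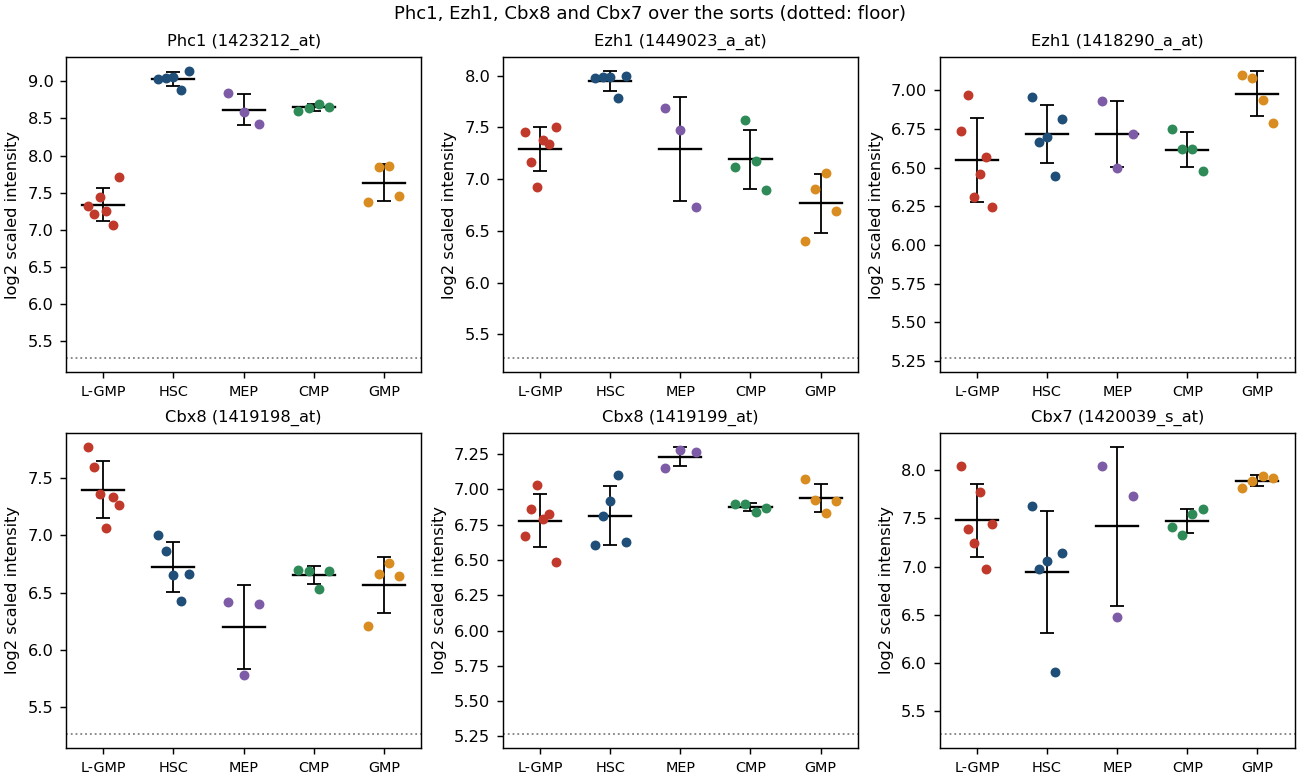
Log2 level of 6 probe sets on each of the 22 sorted arrays (points, ordered by replicate number), with the group mean and SD in black and the floor dotted. Phc1 is high in HSC, MEP and CMP, while the paired probe sets of Ezh1 and of Cbx8 place the groups in different orders.

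Cbx8 encodes a chromobox reader of canonical PRC1, and its 2 tested probe sets disagreed. By 1419198_at it was the member that set L-GMP apart from every normal sort. That probe set read 7.07, 7.35 and 7.77 (lowest, median and highest) in L-GMP. The HSC arrays read 7.0, 6.87, 6.66, 6.43 and 6.66, and the GMP arrays 6.21, 6.67, 6.76 and 6.64. The MEP arrays read 6.42, 5.78 and 6.41, and the CMP arrays 6.70, 6.69, 6.53 and 6.69. Every L-GMP array exceeded every array of the 4 normal sorts. L-GMP was higher by 0.83 ± 0.15 than GMP (adjusted p = 0.000207), by 0.68 ± 0.14 than HSC (adjusted p = 0.000415), by 0.75 ± 0.15 than CMP (adjusted p = 0.000398) and by 1.20 ± 0.16 than MEP (adjusted p = 3.60e-06). HSC exceeded MEP by 0.52 ± 0.17 (adjusted p = 0.0227), but by 0.31 without MEP replicate 2 (adjusted p = 0.194), and the call also ended without HSC replicate 1 (0.0547), without HSC replicate 2 (0.0501) and with only these groups in the fit (0.0756). With the floor raised to the 50th percentile HSC minus MEP was 0.08 (adjusted p = 0.685) and L-GMP minus MEP 0.65, still called.

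The other Cbx8 probe set, 1419199_at, gave no such difference. It read 6.48, 6.81 and 7.04 (lowest, median and highest) in L-GMP, 6.60, 6.82, 6.92, 7.11 and 6.63 in HSC, 7.15, 7.28 and 7.27 in MEP, 6.90, 6.90, 6.84 and 6.87 in CMP, and 7.07, 6.92, 6.84 and 6.92 in GMP. MEP was highest and overlapped with none of the other groups. L-GMP was 0.45 ± 0.11 lower than MEP (adjusted p = 0.00258) and HSC 0.42 ± 0.12 lower than MEP (adjusted p = 0.00910), while L-GMP minus GMP was -0.16 ± 0.10 (adjusted p = 0.268). Over the 22 arrays, which both probe sets share, their Pearson's r was -0.64. A limma fit of the difference between a gene's 2 brightest tested probe sets on each array, added after the values were seen, put the disagreement to a test across 2582 genes. The change differed between the Cbx8 probe sets for L-GMP against all 4 normal sorts and for HSC against MEP, by up to 1.65 (L-GMP against MEP, adjusted p = 1.74e-05), in 5 of the 10 pairs in all. Of all such genes, 10.1%, 27.1%, 17.5% and 17.8% were called for L-GMP against GMP, HSC, CMP and MEP, and 10.5% for HSC against MEP. Which of the probe sets follows the Cbx8 transcript cannot be told from these arrays.

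Cbx7 encodes another chromobox reader of PRC1. Its tested probe set (1420039_s_at) read 6.97, 7.41 and 8.04 (lowest, median and highest) in L-GMP. The HSC arrays read 7.63, 6.98, 7.06, 5.90 and 7.14, the MEP arrays 8.04, 6.48 and 7.73, the CMP arrays 7.41, 7.33, 7.55 and 7.59, and the GMP arrays 7.81, 7.89, 7.94 and 7.92. GMP was the tightest group and lay above every HSC and CMP array. HSC was lower than GMP by 0.95 ± 0.29 (adjusted p = 0.0126), the only call of this gene, and HSC replicate 4 was the lowest of the 22 arrays. L-GMP lay between them, with L-GMP minus GMP at -0.41 ± 0.28 (adjusted p = 0.288) and L-GMP minus HSC at 0.53 ± 0.26 (adjusted p = 0.103). In the same pair, HSC against GMP, 27 of 44 proliferation probe sets were called lower, against 22.3% of all. Their part in the Cbx7 levels was not tested. A further probe set, 1449713_at, was at the floor on 10 of 22 arrays, reached 5.99 at most and was not tested.

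Bmi1, the partner of the RING proteins in canonical PRC1, was read by 2 probe sets that ran together (Pearson's r = 0.78 over 22 shared arrays). By 1448733_at it read 6.91, 7.11 and 7.38 (lowest, median and highest) in L-GMP. The HSC arrays read 8.05, 7.81, 7.20, 7.82 and 7.94, the MEP arrays 7.81, 7.25 and 7.37, the CMP arrays 7.29, 7.51, 7.50 and 7.95, and the GMP arrays 6.95, 7.28, 7.57 and 7.29. HSC was highest by its mean, and L-GMP and GMP overlapped with it only through HSC replicate 3. L-GMP was lower than HSC by 0.63 ± 0.16 (adjusted p = 0.00252), and L-GMP minus CMP was -0.43 ± 0.17 (adjusted p = 0.0509). HSC exceeded GMP by 0.49 ± 0.18 (adjusted p = 0.0313), but this call ended without replicate 1 of HSC, CMP and GMP (0.31, adjusted p = 0.207) and without any of 7 of the 9 HSC and GMP arrays (adjusted p up to 0.115, without GMP replicate 1). By 1417493_at the order began alike, with means of 8.88 in L-GMP, 9.11 in HSC, 8.95 in MEP, 9.02 in CMP and 8.81 in GMP. No comparison of 1417493_at was called, HSC minus GMP being 0.30 ± 0.12 (adjusted p = 0.0508) and L-GMP minus HSC -0.22 ± 0.11 (adjusted p = 0.0986). HSC against GMP was called under some alternatives, such as quantile normalization (adjusted p = 0.0310) and a floor at the 50th percentile (0.0440). With the replicate number as a block it was not called (0.0875). L-GMP minus GMP was -0.14 ± 0.17 by 1448733_at and 0.08 ± 0.11 by 1417493_at (adjusted p = 0.590 and 0.665). Though the probe sets ran together, the change of L-GMP against HSC differed between them by 0.41 ± 0.12 (adjusted p = 0.0135, against 27.1% of genes).

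Ring1 and Rnf2 encode the alternative ubiquitin ligases of PRC1, and their levels varied little over the sorts. Ring1 (1422647_at) averaged 6.61 ± 0.19 in L-GMP, 6.49 ± 0.22 in HSC, 6.60 ± 0.34 in MEP, 6.43 ± 0.35 in CMP and 6.55 ± 0.19 in GMP (SD), and its lowest adjusted p over the 10 pairs was 0.415. Only 3.43% of all tested probe sets ranged less over the sorts. Rnf2 by 1424873_at read 9.14, 9.63 and 9.95 (lowest, median and highest) in L-GMP, 9.89, 9.68, 9.74, 10.17 and 9.85 in HSC, 9.62, 9.35 and 9.52 in MEP, 9.64, 9.75, 9.68 and 9.96 in CMP, and 9.49, 9.70, 9.52 and 9.43 in GMP. The HSC and MEP arrays did not overlap, but HSC minus MEP was 0.37 ± 0.15 with an adjusted p of 0.0703. By 1451519_at the 5 group means lay within 0.11, and 0.75% of all probe sets ranged less. The probe sets 1448041_at and 1448043_x_at were also without a call in the main fit, and 1448042_s_at, at the floor on 19 of 22 arrays, was not tested. By 1448043_x_at HSC minus MEP was -0.37 ± 0.16 (adjusted p = 0.0908), opposite in sign to 1424873_at. This change was called under quantile normalization (adjusted p = 0.0469) and without MEP replicate 1 (0.0390). That of 1424873_at in the same pair was called without L-GMP replicate 1 (0.0347). The 4 tested Rnf2 probe sets did not run together, their pairwise Pearson's r over the same 22 arrays lying between -0.36 and 0.50. The change of HSC against GMP differed between 1424873_at and 1451519_at by 0.38 ± 0.12 (adjusted p = 0.0248, against 18.6% of genes called in the same test).

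**Figure D3:**
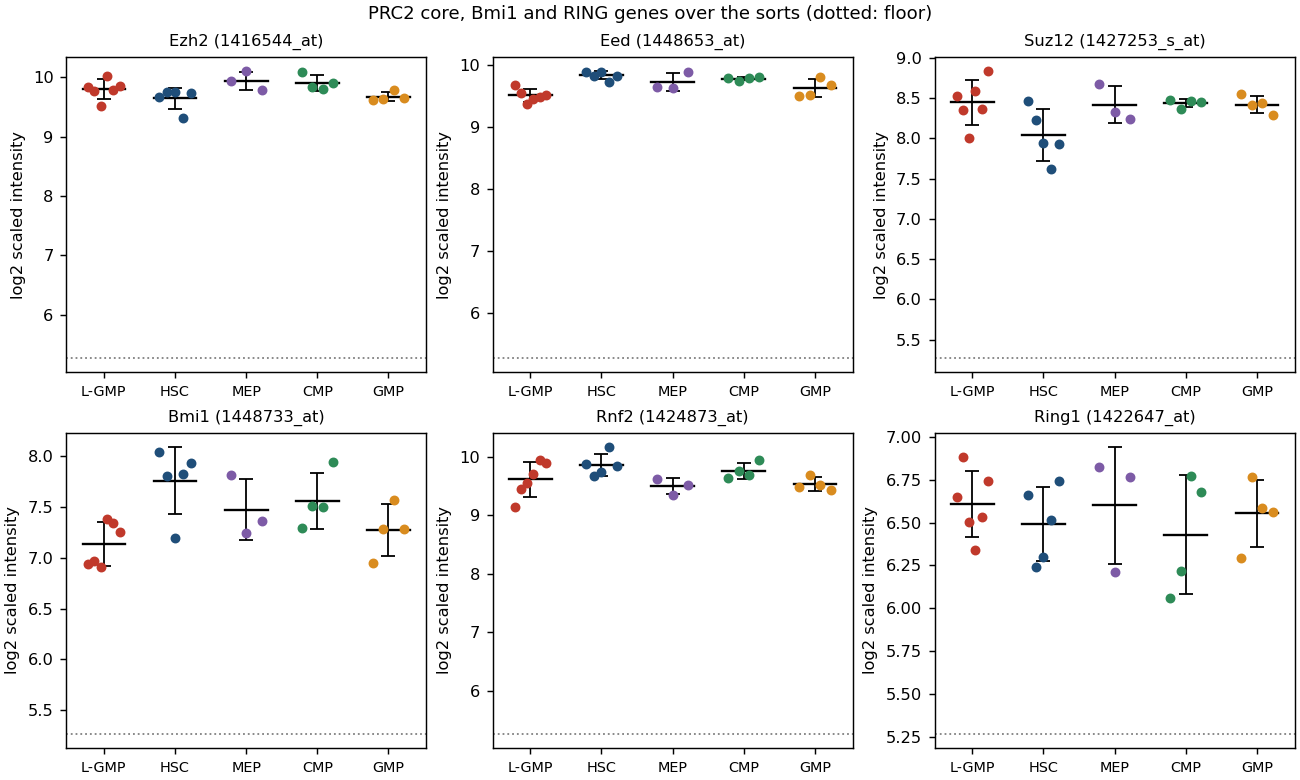
Log2 level of 1 probe set each of Ezh2, Eed, Suz12, Bmi1, Rnf2 and Ring1 on the 22 sorted arrays, with group mean and SD in black and the floor dotted. Eed is slightly lower in L-GMP than in HSC and CMP, Bmi1 is highest by its mean in HSC, and Ezh2, Rnf2 and Ring1 gave no call.

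Ezh1 and Ezh2 encode the alternative methyltransferases of PRC2. Ezh1 is known from mouse tissues as the form kept in resting and differentiated cells, and Ezh2 as the form of dividing cells. Ezh1 by 1449023_a_at read 6.93, 7.36 and 7.51 (lowest, median and highest) in L-GMP. The HSC arrays read 7.98, 7.99, 7.99, 7.78 and 8.0, the MEP arrays 7.68, 7.47 and 6.73, the CMP arrays 7.11, 7.57, 7.18 and 6.89, and the GMP arrays 6.40, 6.91, 7.06 and 6.69. Every HSC array exceeded every other array of the sorted experiment. HSC was higher by 1.18 ± 0.18 than GMP (adjusted p = 1.44e-05), by 0.76 ± 0.18 than CMP (adjusted p = 0.00607) and by 0.65 ± 0.19 than MEP (adjusted p = 0.0112, and 0.163 without MEP replicate 3). L-GMP was 0.65 ± 0.16 lower than HSC (adjusted p = 0.00165).

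The 2 Ezh1 probe sets were called in opposite directions between L-GMP and GMP. By 1449023_a_at L-GMP was higher by 0.53 ± 0.17 (adjusted p = 0.0193), and by 1418290_a_at it was lower by 0.43 ± 0.13 (adjusted p = 0.0153). Without replicate 1 of HSC, CMP and GMP neither was called (0.41, adjusted p = 0.106, and -0.39, adjusted p = 0.0503). The first call also ended without GMP replicate 1 (adjusted p = 0.0871) and without GMP replicate 4 (adjusted p = 0.0503), and the second without GMP replicate 2 (adjusted p = 0.0505). The values of 1418290_a_at were 6.24, 6.51 and 6.97 (lowest, median and highest) in L-GMP, 6.95, 6.67, 6.70, 6.45 and 6.81 in HSC, 6.93, 6.50 and 6.72 in MEP, 6.75, 6.62, 6.62 and 6.48 in CMP, and 7.10, 7.08, 6.94 and 6.79 in GMP. GMP was thus highest by this probe set and lowest by the other. Pearson's r between them was -0.17 over the 22 shared arrays. The per-array difference between them changed by 0.96 ± 0.20 for L-GMP against GMP (adjusted p = 0.00358) and by 1.44 ± 0.21 for HSC against GMP (adjusted p = 5.63e-05), where 10.1% and 18.6% of the 2582 genes were called. MEP and CMP against GMP were called as well (adjusted p = 0.0457 and 0.0486, against 7.63% and 3.91% of genes). A direction for Ezh1 between leukaemic and normal GMP therefore cannot be given. The higher Ezh1 level in HSC was likewise seen by 1449023_a_at only. By 1418290_a_at HSC minus GMP was -0.26 ± 0.14 (adjusted p = 0.138) and HSC minus CMP 0.10 ± 0.14 (adjusted p = 0.712). HSC minus MEP was -0.00016 ± 0.15 by that probe set, and L-GMP minus HSC -0.17 ± 0.12 (adjusted p = 0.285), none called.

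Ezh2 (1416544_at) read 9.51, 9.81 and 10.02 (lowest, median and highest) in L-GMP, 9.67, 9.75, 9.76, 9.32 and 9.73 in HSC, 9.93, 10.10 and 9.79 in MEP, 10.09, 9.83, 9.80 and 9.90 in CMP, and 9.62, 9.64, 9.78 and 9.66 in GMP. Every MEP and CMP array exceeded every HSC and GMP array, but the gaps were small. HSC minus MEP was -0.30 ± 0.12 (adjusted p = 0.0596), HSC minus CMP -0.26 ± 0.11 (adjusted p = 0.129) and MEP minus GMP 0.27 ± 0.12 (adjusted p = 0.123). L-GMP minus GMP was 0.12 ± 0.10 (adjusted p = 0.404) and L-GMP minus HSC 0.15 ± 0.10 (adjusted p = 0.214). Ezh2 thus passed the test in no pair of the main fit. HSC against MEP was called under some alternatives, such as quantile normalization (adjusted p = 0.0474) and a floor at the 50th percentile (0.0483). It was also called with a trended robust prior (0.0469) and without L-GMP replicate 3 (0.0421), L-GMP replicate 4 (0.0491) or MEP replicate 3 (0.0488). With the replicate number as a block it was not called (0.0993). Of the 44 tested proliferation probe sets, 27 were called lower in HSC than in GMP, 14 lower than in CMP and 3 lower than in MEP. Over all probe sets 22.3% were called lower in HSC than in GMP, 882 of 12233 lower than in CMP and 15.8% lower than in MEP. The part of proliferation in the Ezh2 levels was not tested.

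Eed encodes the PRC2 subunit that binds methylated lysine 27. Its tested probe set (1448653_at) read 9.37, 9.51 and 9.69 (lowest, median and highest) in L-GMP. The HSC arrays read 9.90, 9.83, 9.90, 9.74 and 9.82, the MEP arrays 9.65, 9.64 and 9.89, the CMP arrays 9.80, 9.75, 9.80 and 9.81, and the GMP arrays 9.51, 9.52, 9.81 and 9.69. All HSC and CMP arrays lay above all L-GMP arrays. L-GMP was lower than HSC by 0.32 ± 0.08 (1.25-fold, adjusted p = 0.00139) and lower than CMP by 0.27 ± 0.08 (adjusted p = 0.0108). L-GMP minus MEP was -0.21 ± 0.09 (adjusted p = 0.0602) and L-GMP minus GMP -0.12 ± 0.08 (adjusted p = 0.293). The second Eed probe set, 1453830_at, was at the floor on 21 of 22 arrays and was not tested.

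Suz12 encodes the scaffold of PRC2 and was read by 6 probe sets, of which 4 were tested in the sorted experiment. The other 2, 1420020_at (at the floor on all 22 arrays) and 1449661_at (6.59 at most), were not. By 1420021_s_at no comparison was called, with means of 10.04 in L-GMP, 9.90 in HSC, 10.13 in MEP, 10.13 in CMP and 9.96 in GMP. HSC had the lowest mean in all 4. By 1420022_s_at the arrays read 6.21, 6.40 and 6.77 (lowest, median and highest) in L-GMP, 5.83, 5.36, 6.15, 6.01 and 5.95 in HSC, 6.82, 6.62 and 6.33 in MEP, 5.96, 5.61, 6.12 and 6.57 in CMP, and 6.78, 6.47, 6.58 and 6.21 in GMP. HSC lay below all L-GMP, MEP and GMP arrays. L-GMP exceeded HSC by 0.60 ± 0.16 (adjusted p = 0.00462), and HSC was below GMP by 0.65 ± 0.18 (adjusted p = 0.00667) and below MEP by 0.73 ± 0.20 (adjusted p = 0.00683). This probe set lies near the floor, and with the floor raised to the 50th percentile the L-GMP minus HSC difference was 0.00447 (adjusted p = 0.955), HSC minus GMP -0.01 (adjusted p = 0.921) and HSC minus MEP -0.03 (adjusted p = 0.771). L-GMP against HSC also lost its call with the 3' to 5' signal ratio as a covariate (adjusted p = 0.0596). By 1427253_s_at L-GMP exceeded HSC by 0.41 ± 0.14 (adjusted p = 0.0204, and 0.131 with that covariate, 0.0655 with only these groups in the fit, 0.0792 without HSC replicate 4 and 0.0545 without L-GMP replicate 6). By 1452364_at HSC was below GMP by 0.59 ± 0.19 (adjusted p = 0.0178, and 0.0512 without HSC replicate 4, 0.0519 without HSC replicate 5 and 0.0554 with only these groups in the fit). With the floor at the 50th percentile the difference was -0.35 (adjusted p = 0.0708). The probe sets 1427253_s_at and 1452364_at ran together (Pearson's r = 0.92 over 22 shared arrays), the other pairs less so (0.25 to 0.60). The test of probe set differences, run on 1420021_s_at and 1427253_s_at, called 0 of the 10 pairs (limma, lowest adjusted p = 0.128, 1 pair at an unadjusted p under 0.05).

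In transduced GMP, none of the 14 tested member probe sets was called between MLL-AF9 and GFP, where 1 of 10523 probe sets was called in all (0.0095%). With the replicate number as a block, which the pairing check warranted, 143 probe sets were called (1.36%), again none of the members (lowest adjusted p = 0.194). Only 1 member probe set had an unadjusted p under 0.05 without the block, as had 9.61% of all. Of the 14, 12 had a higher mean with MLL-AF9, against 54.6% of all tested probe sets, and the median change of the 14 was 0.19, against 0.02 over all. These 14 read 9 genes on the same arrays, so they are not separate observations. Probe sets of Bmi1, of Suz12 and of Rnf2 ran together over the 6 arrays (Pearson's r between 0.92 and 0.99), and those of Ezh1 did not (r = -0.68). The changes lay between -0.39 and 0.43, with adjusted p-values from 0.507 to 0.939 without the block and from 0.194 to 0.897 with it. Unless the block is named, the SEs and p-values by gene below are from the fit without it, so they include the variation between pairs. Markers of monocytes and macrophages had mean levels of 9.24 to 9.95 with MLL-AF9 and of 10.25 to 10.85 with GFP. Immediate early and heat shock genes lay at 7.82 to 8.57 with MLL-AF9 and at 8.58 to 9.27 with GFP, and stem cell markers at 7.70 to 8.05 with MLL-AF9 and at 7.10 to 7.52 with GFP. The part of these lists in the member values was not tested.

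Among the tested probe sets, the largest shifts were those of Bmi1 and Ezh1. Bmi1 by 1417493_at read 10.34, 11.03 and 10.74 with MLL-AF9, against 9.95, 10.30 and 10.58 with GFP. By 1448733_at it read 8.41, 8.99 and 8.63 with MLL-AF9, against 7.78, 8.34 and 8.65 with GFP. The groups overlapped in both, and the changes were 0.43 ± 0.23 (adjusted p = 0.580) and 0.42 ± 0.25 (adjusted p = 0.617). With the block the adjusted p-values were 0.196 and 0.243. Ezh1 by 1449023_a_at read 7.99, 7.87 and 8.18 with MLL-AF9, against 8.61, 8.24 and 8.35 with GFP, without overlap. Its change was -0.39 ± 0.15 (unadjusted p = 0.0337, adjusted p = 0.507, and 0.194 with the block). By 1418290_a_at Ezh1 read 8.29, 8.34 and 8.28 with MLL-AF9, against 7.68, 8.22 and 8.44 with GFP, and the change was 0.19 ± 0.20 (adjusted p = 0.798). The 2 Ezh1 probe sets again pointed in opposite directions, neither called.

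Ezh2 read 11.01, 11.60 and 11.61 with MLL-AF9, against 10.87, 11.14 and 11.26 with GFP. Its change was 0.31 ± 0.20 (adjusted p = 0.641, and 0.229 with the block). Suz12 was low on replicate 1 of both groups. By 1452364_at it read 8.44, 9.50 and 9.90 with MLL-AF9, against 8.30, 9.26 and 9.39 with GFP. The change of Suz12 by this probe set was 0.29 ± 0.44 (adjusted p = 0.862, and 0.258 with the block). Rnf2 (1424873_at) read 10.50, 11.03 and 11.11 with MLL-AF9, against 10.47, 10.52 and 10.91 with GFP. Its change was 0.25 ± 0.21 (adjusted p = 0.721), with overlap. Cbx8 (1419198_at) read 8.46, 7.76 and 7.90 with MLL-AF9, against 8.39, 8.16 and 8.01 with GFP. Its change of -0.15 ± 0.21 (adjusted p = 0.854) passed no threshold, and the comparison with the sorted experiment, where L-GMP was higher than GMP by this probe set, was not tested because the experiments are noncomparable. MLL-AF9 minus GFP was 0.07 for Cbx7, 0.10 for Eed and 0.12 for Ring1 (adjusted p = 0.939, 0.883 and 0.768). Phc1, untested here, read 7.61, 7.86 and 7.58 with MLL-AF9, against 8.02, 7.88 and 7.94 with GFP.

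**Figure D4:**
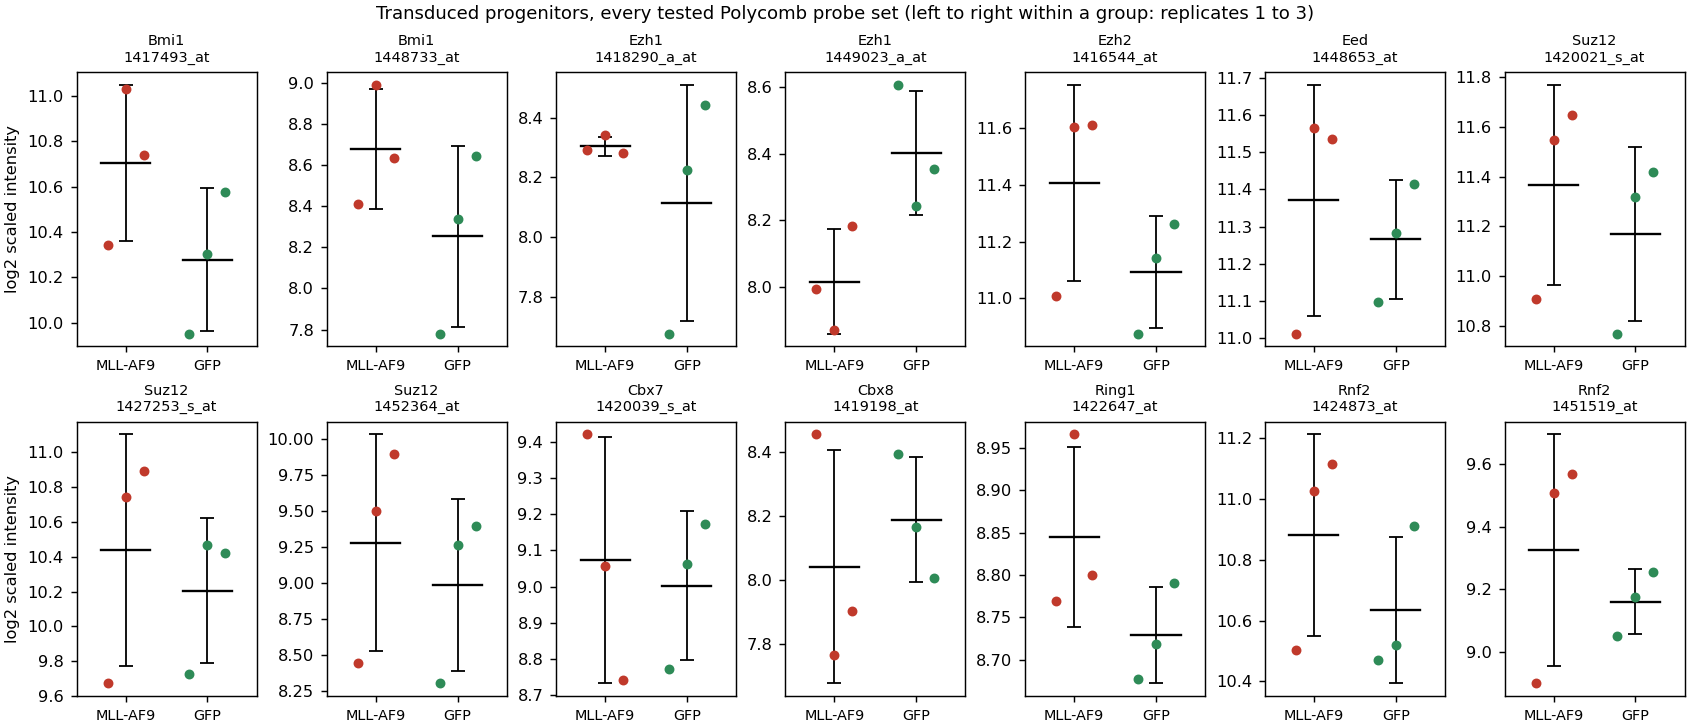
Log2 level of the 14 tested Polycomb probe sets on the 3 MLL-AF9 arrays (left, red) and the 3 GFP arrays (right, green), with mean and SD in black. The axes are cut to each probe set's range. Ranges overlap in all panels but that of Ezh1 1449023_a_at.

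Other genes of the pathway were taken from lists of PRC1 and PRC2 partners and of the enzymes that remove their marks, 30 genes, of which 21 were on the array and 19 were tested (32 probe sets) in the sorted experiment. L-GMP against GMP gave 14 called probe sets (5 higher, 9 lower; 43.8%, against 32.8% of all), and L-GMP against HSC 19 (6 higher, 13 lower; 59.4%, against 47.3%). The median change of the 11 PRC1 partner probe sets was -0.06 against GMP, that of the 14 PRC2 partner probe sets -0.0062 and that of the 7 for eraser enzymes -0.08. Between MLL-AF9 and GFP none of 29 was called (lowest adjusted p = 0.432, and 0.0982 with the block).

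Among PRC1 partners, the chromobox genes Cbx2 and Cbx6 moved furthest. Cbx2 (1434116_at) read 5.71, 6.04 and 6.36 (lowest, median and highest) in L-GMP, 8.65, 8.62, 8.56, 8.50 and 8.71 in HSC and 7.13, 7.57, 7.29 and 6.99 in GMP, with no overlap among the 3 groups. L-GMP fell below GMP by 1.17 ± 0.14 (adjusted p = 1.37e-06) and below HSC by 2.54 ± 0.13 (adjusted p = 6.97e-13). Cbx6 (1424407_s_at) fell in L-GMP by 1.65 ± 0.19 relative to GMP (adjusted p = 9.77e-07) and by 2.89 ± 0.18 relative to HSC (adjusted p = 1.69e-11). Its L-GMP arrays, 5.29 at the lowest and 6.34 at the highest, lay near the floor. The PRC1 partner Yaf2 was higher in L-GMP than in GMP by 0.41 ± 0.14 (1429839_a_at), and Pcgf6 lower by 0.27 ± 0.09 (1424081_at), with adjusted p = 0.0290 and 0.0345. The other tested probe set of Pcgf6, 1432108_at, gave 0.32 ± 0.18 with the opposite sign, not called (adjusted p = 0.200), and that of Yaf2, 1423399_a_at, gave 0.37 ± 0.16 (adjusted p = 0.0840).

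Among PRC2 partners, Jarid2, which helps the complex find its targets, and Phf19, which binds methylated lysine 36 of histone H3, were higher in L-GMP. Jarid2 rose against GMP by 0.66 ± 0.11 (1422697_s_at, adjusted p = 5.26e-05) and by 0.75 ± 0.16 (1422698_s_at, adjusted p = 0.000831), and against HSC by 0.99 ± 0.10 and 1.01 ± 0.15. By 1422698_s_at all 6 L-GMP arrays (10.30 to 10.63) lay above the GMP arrays, which read 9.59, 9.89, 9.72 and 9.55. Phf19 (1427920_at) rose by 0.60 ± 0.10 against GMP and by 0.54 ± 0.10 against HSC, while its probe set 1431857_at was not called (0.21 and 0.05). Mtf2, a relative of Phf19, fell against GMP by 3 of its 4 probe sets (by 0.87, 0.56 and 0.51) and not by 1418514_at (0.01). Rbbp7, a histone chaperone in the complex, fell by 0.35 ± 0.08 and 0.31 ± 0.07. Asxl1, a cofactor of the H2A deubiquitinase Bap1, was higher in L-GMP than in GMP by 0.52 ± 0.15 by 1435077_at and lower than in HSC by 0.66 ± 0.10 by 1434561_at, so that each probe set gave 1 of these calls. L-GMP minus GMP by 1434561_at was -0.13 ± 0.10 (adjusted p = 0.381) and L-GMP minus HSC by 1435077_at 0.32 ± 0.14 (adjusted p = 0.0669), each of the opposite sign to the call. Bap1 fell against HSC by 0.78 ± 0.11 and 0.56 ± 0.09, but its L-GMP and GMP arrays overlapped. They read 6.75 to 7.15 and 6.80 to 7.29 by 1426354_at, and 8.59 to 8.91 and 8.73 to 9.23 by 1452039_a_at. Of the 7 eraser probe sets, 1 was called higher and 1 lower in L-GMP than in GMP (14.3% and 18.5% of all). Usp16, also an eraser (1431951_a_at), read 6.88 to 7.30 in L-GMP and 7.24, 7.50, 7.76 and 7.65 in GMP.

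Of 3 classical Polycomb targets, Cdkn1c, which encodes a cell cycle inhibitor, was called. It read 6.64, 7.43 and 9.13 (lowest, median and highest) in L-GMP, 8.54, 8.41, 7.61, 8.07 and 8.03 in HSC, and 5.27, 5.35, 5.27 and 5.27 in GMP, 3 of these 4 at the floor. L-GMP exceeded GMP by 2.45 ± 0.34 (adjusted p = 1.00e-05), a size that depends on the floor, and L-GMP minus HSC was -0.39 ± 0.32 (adjusted p = 0.350). Cdkn2b, a further inhibitor, passed no test here (L-GMP minus GMP -0.04 ± 0.19, adjusted p = 0.903). Cdkn2a, the inhibitor gene best known as a BMI1 target, was at the floor on all 6 L-GMP and all 5 HSC arrays and on 3 of 4 GMP arrays, and was not tested.

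**Figure D5:**
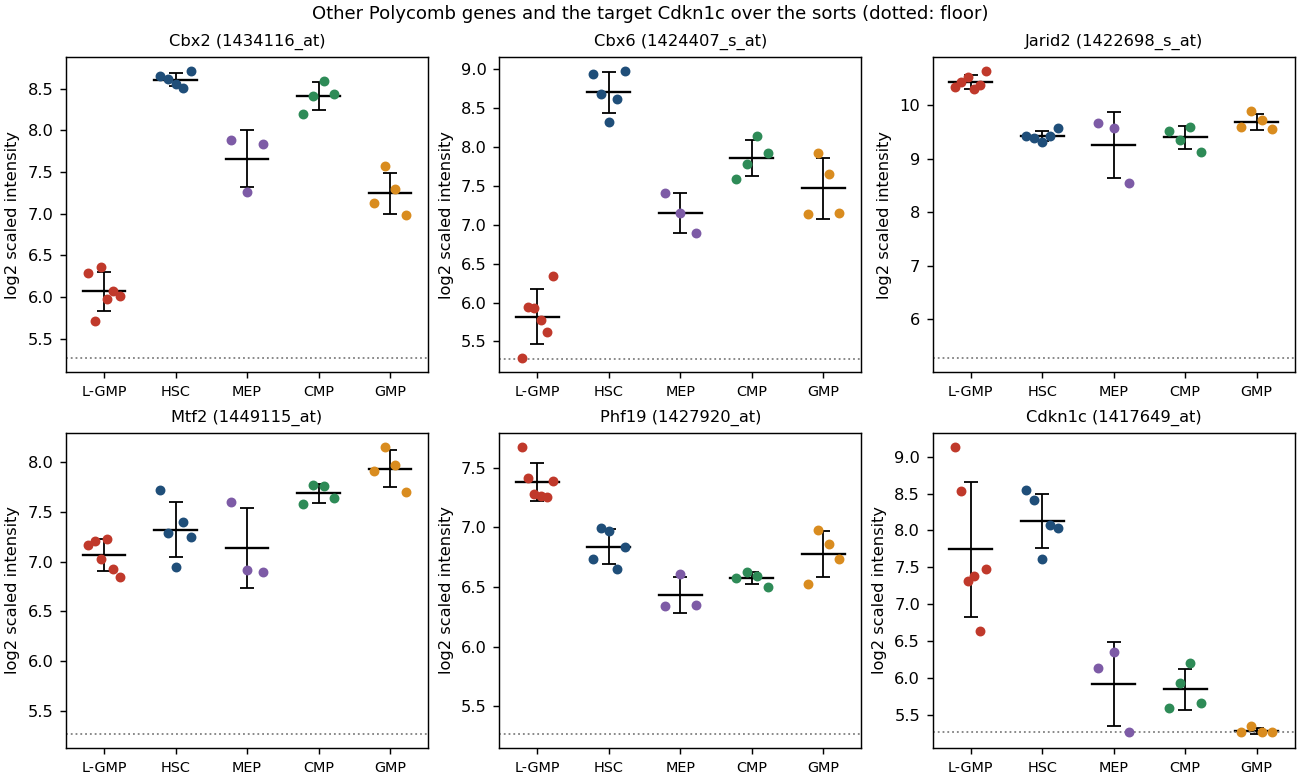
Log2 level of Cbx2, Cbx6, Jarid2, Mtf2, Phf19 and the target Cdkn1c on the 22 sorted arrays, with group mean and SD in black and the floor dotted. In L-GMP, Cbx2 and Cbx6 are the lowest and Jarid2 and Phf19 the highest of the 5 groups.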

How the data were processed

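Labelled RNA of sorted cells (about 10000 cells and 50 ng of total RNA a sample, per the labels' protocols) was read on 28 arrays. The authors deposited linear probe set intensities, and the submitters' processing notes name MAS5; version and scaling target are not given in the sources used here. The sources do not explain the 187 to 413 values per array that are 0 or negative.

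Groups and replicate numbers came from the sample titles. Within each experiment, arrays were scaled to a common mean after trimming 2% at each end, values below the experiment's 25th percentile were raised to it, and log2 was taken. Probe sets with 1 annotated gene that exceeded the median on at least 3 arrays were kept (12233 sorted, 10523 transduced). Platform annotation gave several genes for 691 probe sets and none for 1555, and 64 controls were left out. Limma 3.58.1 (R 4.3.3) was fitted by probe set, all 22 sorted arrays in 1 fit and the 6 transduced arrays in another. The fit was also run on simulated data with independent noise on each array. Such data cannot show how the fit handles effects that arrays share. The log2 ratio of 3' to 5' control signal was 1.49 ± 0.26 (SD) in the transduced and 2.98 ± 0.18 in the sorted arrays. The number of arrays limits the precision.

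Same-numbered MLL-AF9 and GFP arrays deviated together in 3 of 3 pairs (r between 0.42 and 0.64), so the block counts are given there. Alternatives changed the scaling, floor, filter, variance prior, probe sets per gene, block, 3' to 5' covariate, arrays in the fit and each array in turn. All member probe sets were named; of every other list, up to 4 genes with the largest called changes, and the 3 targets and the genes that define a sort whatever their change. The members and lists were chosen with earlier results of these data known.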

Additional observations from a re-analysis of the deposited data

Results flagged for a closer look

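In 7 of 76 groups of 4 to 6 arrays, 1 array stood apart from the rest by Dixon's criterion, and chance flags about 1 group in 20. In HSC, Bmi1 (1448733_at) read 7.20 on replicate 3, against 7.81 to 8.05 on the other 4 arrays. HSC replicate 4 was low in Ezh1 (1449023_a_at), at 7.78 against 7.98 to 8.0, and in Ezh2, at 9.32 against 9.67 to 9.76. In CMP, Eed (1448653_at) read 9.75 on replicate 2, against 9.80 to 9.81, and Cbx8 (1419198_at) read 6.53 on replicate 3, against 6.69 to 6.70. Rnf2 by the dim probe set 1448041_at read 7.46 on L-GMP replicate 4, against 6.17 to 6.64, and 6.0 on GMP replicate 3, against 6.91 to 7.04.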

How the results depend on the processing

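The 31 called changes were recomputed under alternatives, 964 values in all: 908 kept their direction and their call, 56 kept the direction only, and none reversed. Of the 31 changes, 19 kept their call under every alternative run. Of 173 uncalled changes, 27 gained a call somewhere. With 1 probe set per gene, fewer probe sets could be called: 1 for L-GMP against GMP, 3 for L-GMP against HSC, 3 for HSC against MEP and 4 for any difference among the sorts. Quantile normalization gave 8 for HSC against MEP, 1 for MEP against CMP and 2 for MEP against GMP, and a floor at the 50th percentile 1 for MEP against CMP and 2 for MEP against GMP. HSC against CMP fell to 1 with no filter, with a trended robust prior, and without replicate 1 of HSC, CMP and GMP (chosen after seeing the data). With only the compared groups in the fit, MEP against CMP gave 1 and CMP against GMP 3. The cause of these moves was not tested.

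In the sorted experiment, same-numbered arrays correlated over 0.1 in 20 of 37 pairs (r between -0.50 and 0.54). Only for L-GMP against MEP did every pair exceed it (3 of 3, r between 0.11 and 0.17), and there the block left 3 member calls, as without it. In the other comparisons some pairs exceeded it and others did not. Replicate 1 of HSC and CMP had r = 0.54 and replicate 4 of CMP and GMP r = 0.47, while replicate 3 of L-GMP and GMP had r = -0.50. The labels do not say what the numbers stand for, so a shared origin of same-numbered arrays is not known. The replicate block gave 8 calls for L-GMP against HSC, 4 for L-GMP against CMP, 1 for MEP against CMP and 2 for CMP against GMP. Phc1 gained a call for L-GMP against GMP (-0.36, adjusted p = 0.0311), as did Bmi1 1448733_at for L-GMP against CMP (0.0352), Rnf2 1424873_at for L-GMP against HSC (0.0487) and Suz12 1427253_s_at for HSC against GMP (0.0413), while the Ezh1 probe set 1449023_a_at had adjusted p = 0.0664 for L-GMP against GMP, and Bmi1 1448733_at 0.0613 for HSC against GMP. Between MLL-AF9 and GFP the block left 0 member calls.

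Leaving out 1 array at a time gave between 0 and 0 member calls for MLL-AF9 against GFP, 2 and 4 for L-GMP against GMP, 6 and 9 for L-GMP against HSC, 3 and 4 for L-GMP against CMP and likewise against MEP, 4 and 8 for HSC against GMP, 1 and 3 for HSC against CMP, 4 and 6 for HSC against MEP, 0 and 1 for MEP against CMP, 1 and 2 for MEP against GMP and for CMP against GMP, and 6 and 10 for any difference among the sorts. Suz12 1420022_s_at and 1452364_at and Cbx8 1419198_at lay above the floor on all sorted arrays, but differences of each shrank with the floor at the 50th percentile. Values at the floor have no order, which limits those untested probe sets that reached it.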
